A study of Mus musculus with 12 samples.

Results

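The genes described here are 10 core pluripotency factors, Pou5f1, Sox2, Nanog, Utf1, L1td1, Sall4, Zfp281, Dppa2, Dppa4 and Lin28a, chosen by name from the 54555 genes of the expression table. Each of the 10 names matched 1 gene, and all 10 passed the filter on low values that each test used. The data are 12 RNA sequencing libraries of R1 cells, an established line of mouse embryonic stem cells (mESCs), in 4 groups of 3. The RA_OGTi cells were pre-treated for 48 h with 25 µM Ac45SGlcNAc, an inhibitor of O-GlcNAc transferase (OGT). They were then kept for 48 h without leukemia inhibitory factor (LIF) in the presence of 1 µM retinoic acid (RA). The RA_control cells received a DMSO pre-treatment and the same RA step. The mESC_OGTi cells stayed in LIF medium and received 25 µM of the inhibitor for 48 h, and the mESC_control cells stayed in LIF medium without it. The labels do not say whether the mESC_control cells received DMSO. A difference in vehicle therefore cannot be told apart from the treatment in comparisons that use mESC_control. All 4 groups came from the same line, kept on gelatin in serum medium before treatment, and no group carries a genetic change in the labels. RA exposure came together with LIF withdrawal, so the effects of the 2 cannot be told apart, and the labels leave unstated whether the inhibitor was present during the RA step. RA_OGTi thus had the inhibitor before the RA step, and mESC_OGTi had it without a later step. Cell state and this schedule cannot be told apart when the inhibitor's effects in RA-treated cells and mESCs are compared. The labels do not say whether the replicate numbers stand for separate cultures, so each p-value reflects variation among these libraries only, and that variation may be technical.

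Embryonic stem cells keep themselves undifferentiated through a small circuit of transcription factors. OCT4, the POU-domain protein encoded by Pou5f1, binds DNA together with SOX2 at composite sites, and NANOG, a homeodomain protein, acts at many of the same enhancers. LIF signalling sustains this circuit in mouse cells, while RA acts through nuclear receptors and drives exit from the undifferentiated state. OGT attaches single N-acetylglucosamine residues to nuclear and cytoplasmic proteins, OCT4 and SOX2 among them, and O-GlcNAcase, encoded by Mgea5, removes them. The libraries measure RNA, not the proteins or their modification.

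Promoter sequences of Pou5f1, Sox2, Nanog, Utf1 and Lin28a are shown first because OCT4, SOX2 and RA receptors act on DNA. The first 4 of these genes also fell both with RA and, in RA-treated cells, with the inhibitor. RefSeq promoter windows on GRCm38.p6 were matched by symbol for 7 of the 10 genes, Pou5f1, Sox2, Nanog, Lin28a, Utf1, L1td1 and Zfp281. Sall4, Dppa2 and Dppa4 were not matched, and the windows of L1td1 and Zfp281 were searched but are not printed. The 250 bases before the RefSeq start are printed 5′ to 3′ on the strand of the gene, with capitals for matches to 6 short motifs on either strand. The motifs were the octamer core ATGCAAA, the SOX core CATTGT, the OCT-SOX composite (CATTGT, any 1 base, then ATGCAA), which overlaps both of them, the nuclear receptor half-site AGGTCA, the GC box GGGCGG and the CCAAT box CCAAT. The windows lie at chr17:35505782-35506031 (plus strand) for Pou5f1, chr3:34649745-34649994 (plus) for Sox2, chr6:122707239-122707488 (plus) for Nanog, chr7:139943606-139943855 (plus) for Utf1 and chr4:134018817-134019066 (minus) for Lin28a.
Pou5f1: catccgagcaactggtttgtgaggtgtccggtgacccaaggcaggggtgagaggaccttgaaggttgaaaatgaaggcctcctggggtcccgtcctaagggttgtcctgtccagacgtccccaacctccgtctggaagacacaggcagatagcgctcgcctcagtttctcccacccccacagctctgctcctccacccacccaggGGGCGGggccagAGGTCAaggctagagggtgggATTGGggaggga
Sox2: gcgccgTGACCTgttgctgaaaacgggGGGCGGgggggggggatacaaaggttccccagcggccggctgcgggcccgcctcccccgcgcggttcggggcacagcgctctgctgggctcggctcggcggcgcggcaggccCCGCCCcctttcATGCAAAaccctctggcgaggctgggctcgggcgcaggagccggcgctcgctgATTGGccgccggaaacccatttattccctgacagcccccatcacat
Nanog: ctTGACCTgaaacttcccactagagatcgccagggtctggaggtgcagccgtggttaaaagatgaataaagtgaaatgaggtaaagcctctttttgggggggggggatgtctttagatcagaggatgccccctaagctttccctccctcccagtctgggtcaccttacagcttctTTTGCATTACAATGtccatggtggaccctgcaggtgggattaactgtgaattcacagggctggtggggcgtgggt
Utf1: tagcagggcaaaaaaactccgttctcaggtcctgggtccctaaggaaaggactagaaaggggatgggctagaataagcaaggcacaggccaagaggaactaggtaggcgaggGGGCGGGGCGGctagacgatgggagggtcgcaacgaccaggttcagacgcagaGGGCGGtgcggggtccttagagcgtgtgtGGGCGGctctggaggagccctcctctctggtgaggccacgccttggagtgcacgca
Lin28a: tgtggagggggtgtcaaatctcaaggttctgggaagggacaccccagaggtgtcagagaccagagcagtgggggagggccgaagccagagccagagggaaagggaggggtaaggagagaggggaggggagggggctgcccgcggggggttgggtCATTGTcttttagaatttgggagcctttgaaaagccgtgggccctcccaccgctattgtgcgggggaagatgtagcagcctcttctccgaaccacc

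The Nanog window holds the composite on the minus strand, 74 bases before the start, and with it the octamer and SOX cores. That composite was found in 0.0122% of the 32851 RefSeq windows of the same length, and among the 7 matched genes Nanog alone had it. The Sox2 window holds the octamer core 99 bases before the start, and the Lin28a window holds the SOX core 96 bases before it. The octamer core occurs in 4.13% of all windows and the SOX core in 10.7%. The nuclear receptor half-site, found in 14.0% of all windows, stands 33 bases before the start in Pou5f1, 244 in Sox2 and 248 in Nanog. The GC box, found in 32.7% of all windows, occurs 4 times in Utf1, 4 times in Zfp281, once in Pou5f1 and in both orientations in Sox2. The CCAAT box, found in 33.9% of all windows, stands on the minus strand 12 bases before the start in Pou5f1 and 46 in Sox2, and on the plus strand 148 bases before it in Zfp281. The L1td1 window holds none of the 6 motifs. The base composition of these windows differs widely, with 72% G and C in Sox2 and 52% in Nanog, against a median of 52.4% over all windows. These matches describe letters in the windows and do not show binding.

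The libraries held 15553627 to 17833464 fragments assigned to genes, and 12931 to 13993 genes reached 1 FPKM. OGT is inhibited here by a compound, so its gene is not a test of the labels, but both enzymes of O-GlcNAc cycling moved. Mgea5 fell in RA_OGTi (8.26 ± 1.15 FPKM) against RA_control (46.1 ± 2.49), and in mESC_OGTi (9.46 ± 0.327) against mESC_control (37.2 ± 1.05, SD, n = 3 each). The limma adjusted p-values were 2.22e-08 and 5.76e-07. Ogt rose in mESC_OGTi (40.8 ± 0.753 FPKM) against mESC_control (18.1 ± 1.92, adjusted p = 0.000326) and averaged 26.4 ± 1.94 in RA_OGTi and 23.2 ± 3.14 in RA_control (adjusted p = 0.167). All 5 embryonic stem cell markers (Pou5f1, Sox2, Nanog, Zfp42 and Esrrb) were at 1 FPKM or more in every group. Their summed level was 232.8 to 250.3 FPKM in RA_OGTi, 283 to 317.7 in RA_control, 1792 to 1834 in mESC_OGTi and 1821 to 1825 in mESC_control. In bulk RNA, fewer cells expressing a gene and less RNA per cell cannot be told apart.

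In undifferentiated cells the 10 genes spanned a wide range of levels per length. In mESC_control the order was Pou5f1, Utf1, Sox2, Nanog, L1td1, Lin28a, Dppa4, Dppa2, Sall4 and Zfp281, and no neighbours in it overlapped between libraries. In mESC_OGTi, Lin28a and L1td1 changed places with overlapping libraries, and Sall4 stood above Dppa2. With RA the order was Pou5f1, Lin28a, Utf1, Sox2, Dppa4 and Nanog in both groups. Below Nanog, RA_OGTi had Sall4 and Dppa2, whose libraries overlapped, then L1td1 and Zfp281, while RA_control had Dppa2, Sall4, and then Zfp281 and L1td1, whose libraries overlapped. The 10 genes summed to 451 ± 11.3 FPKM in RA_OGTi, 545 ± 23.0 in RA_control, 2233 ± 28.6 in mESC_OGTi and 2379 ± 14.2 in mESC_control (SD, n = 3 each). Replicates agreed closely, with a median coefficient of variation over the 10 genes of 5.18% in RA_OGTi, 6.78% in RA_control, 3.24% in mESC_OGTi and 4.47% in mESC_control. The highest was 16.5% for Zfp281 in RA_control. The lowest support in any library was 437 fragments for L1td1, and the highest was 27316 for Pou5f1.

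Pou5f1 (ENSMUSG00000024406, chromosome 17, 35506018 to 35510772, plus strand, GRCm38 as in the deposited table) encodes OCT4 and was the most abundant of the 10. Its 3 libraries had 128, 127 and 145 FPKM in RA_OGTi and 179.8, 152 and 188 in RA_control. In the undifferentiated state they had 702, 756 and 774 FPKM in mESC_OGTi and 746, 761 and 765 in mESC_control. Every RA_OGTi library was below every RA_control library, while the mESC groups overlapped. Sox2 (ENSMUSG00000074637, chromosome 3, 34650405 to 34652461, plus strand), the binding partner of OCT4, had 43.9, 46.9 and 42.6 FPKM in RA_OGTi and 58.2, 60.3 and 56.3 in RA_control. It had 335, 333 and 311 FPKM in mESC_OGTi and 341, 329.8 and 348 in mESC_control. As with Pou5f1, the RA groups were apart and the mESC groups overlapped. Nanog (ENSMUSG00000012396, chromosome 6, 122707489 to 122714633, plus strand) had 26.7, 26.1 and 25.2 FPKM in RA_OGTi and 35.5, 36.1 and 39.7 in RA_control. It had 289, 291 and 299.8 FPKM in mESC_OGTi and 303, 290.3 and 272 in mESC_control. The RA groups were again apart and the mESC groups again overlapped. The processed copies Nanog-ps1 and Nanog-ps2 took at most 0.176 FPKM on average in any group.

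Utf1 (ENSMUSG00000047751, chromosome 7, 139943789 to 139945112, plus strand), a chromatin-bound factor whose enhancer is a known OCT4 and SOX2 target, had 62.3, 56.4 and 66.6 FPKM in RA_OGTi and 85.3, 74.9 and 85.6 in RA_control. It had 508, 520.5 and 506 FPKM in mESC_OGTi and 603, 598 and 612 in mESC_control. Both inhibitor groups lay wholly below their controls. L1td1 (ENSMUSG00000087166, chromosome 4, 98726734 to 98738480, plus strand), an RNA-binding protein derived from the first open reading frame of a LINE-1 element, had 10.6, 9.35 and 9.62 FPKM in RA_OGTi and 8.85, 9.75 and 7.52 in RA_control. It had 94.8, 87.1 and 83.8 FPKM in mESC_OGTi and 105, 116 and 117 in mESC_control. For L1td1 the RA groups overlapped and the mESC groups did not.

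Sall4 (ENSMUSG00000027547, chromosome 2, 168748332 to 168767943, minus strand), a zinc-finger protein that binds OCT4 and NANOG and recruits the NuRD deacetylase complex, had 24.3, 24.3 and 22.7 FPKM in RA_OGTi and 17.3, 17.0 and 16.0 in RA_control. It had 57.6, 57.5 and 56.3 FPKM in mESC_OGTi and 40.4, 40.5 and 45.7 in mESC_control. Both inhibitor groups lay wholly above their controls. Zfp281 (ENSMUSG00000041483, chromosome 1, 136624901 to 136630053, plus strand), a zinc-finger protein that represses Nanog and also binds NuRD, was the least abundant of the 10 in every group but RA_control. It had 9.26, 8.35 and 7.98 FPKM in RA_OGTi and 8.53, 10.7 and 7.88 in RA_control. It had 14.2, 12.5 and 11.1 FPKM in mESC_OGTi and 11.5, 11.5 and 12.5 in mESC_control. In both states the Zfp281 groups overlapped.

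Dppa2 (ENSMUSG00000072419, chromosome 16, 48310477 to 48319723) and Dppa4 (ENSMUSG00000058550, chromosome 16, 48283735 to 48294292) encode SAP-domain proteins that bind chromatin as a pair. The 2 genes stand on the plus strand, 16184 bases apart, with 0 annotated genes between them. Dppa2 had 22.3, 24.0 and 21.6 FPKM in RA_OGTi and 18.6, 21.9 and 19.1 in RA_control. It had 48.0, 42.0 and 41.9 FPKM in mESC_OGTi and 53.8, 57.8 and 56.6 in mESC_control. The RA groups of Dppa2 overlapped, and its mESC groups did not. Dppa4 had 38.7, 37.1 and 40.5 FPKM in RA_OGTi and 44.1, 42.3 and 41.8 in RA_control. It had 64.7, 66.5 and 63.8 FPKM in mESC_OGTi and 80.4, 80.8 and 74.9 in mESC_control. Both inhibitor groups of Dppa4 lay below their controls. Lin28a (ENSMUSG00000050966, chromosome 4, 134003330 to 134018841, minus strand), an RNA-binding protein that blocks maturation of let-7 microRNAs, had 82.7, 81.7 and 82.0 FPKM in RA_OGTi and 101, 93.7 and 97.7 in RA_control. It had 88.5, 92.8 and 90.7 FPKM in mESC_OGTi and 84.0, 88.9 and 92.3 in mESC_control. The RA groups of Lin28a were apart and its mESC groups overlapped. Genes overlapping Pou5f1, Sox2, Sall4 or Lin28a in the annotation stayed at or below 0.509 FPKM in group means, and reads that fall in both genes were not measured.

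**Figure D1:**
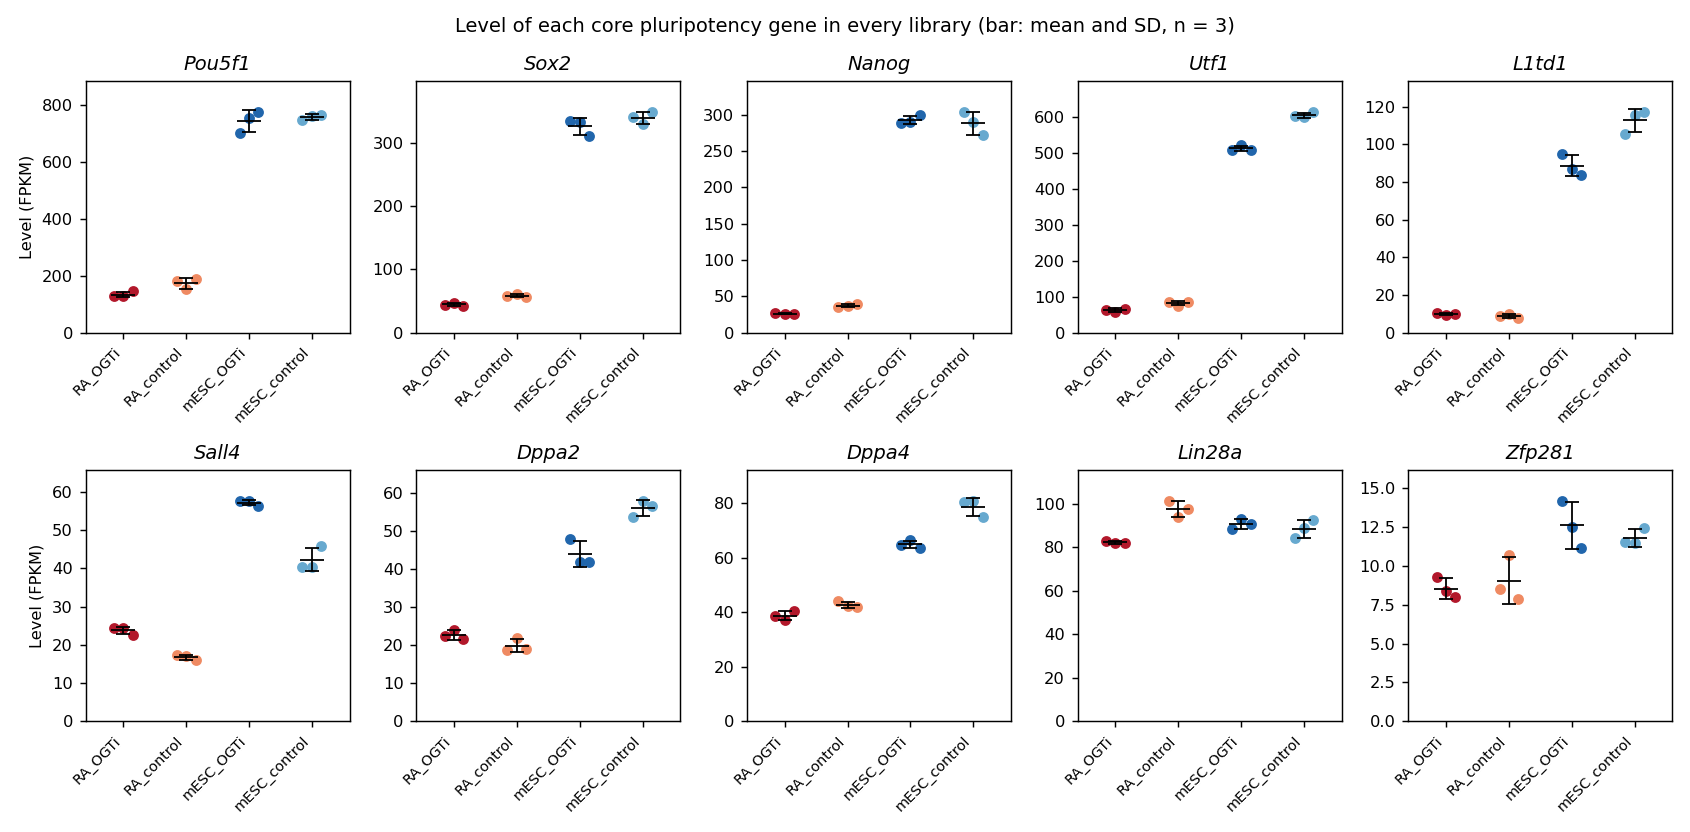
Level in FPKM (vertical axes, from 0) of each of the 10 genes in the 3 libraries of RA_OGTi, RA_control, mESC_OGTi and mESC_control; points are libraries and bars are mean and SD. Sall4 stands higher in both inhibitor groups, RA_OGTi lies below RA_control for Pou5f1, Sox2 and Nanog while their mESC groups overlap, and Lin28a stays between 81.7 and 101 FPKM in all 12 libraries.

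RA without the inhibitor lowered 9 of the 10 genes and left Lin28a as the exception. Changes were tested with limma on log2(FPKM + 1), with Benjamini-Hochberg adjustment over all 14866 genes tested and a threshold of 0.05. Lower calls took 37.2% of all genes tested and higher calls 33.7%, and the median change was -1.79 for the 10 genes and -0.035 for all genes. The same 9 genes were also lower in every RA_control library than in every mESC_control library, which held for 38.5% of all genes, and Lin28a was higher in every one, as were 34.8% of all genes. L1td1 kept the smallest share of its level. It averaged 8.71 ± 1.12 FPKM in RA_control and 113 ± 6.28 in mESC_control, a log2 change of -3.56 ± 0.08 (SE, adjusted p = 4.39e-11). Nanog averaged 37.1 ± 2.27 FPKM in RA_control and 289 ± 15.8 in mESC_control (log2 change -2.93, adjusted p = 7.68e-12). Utf1 averaged 81.9 ± 6.09 and 604 ± 6.81 in the same groups (log2 change -2.87, adjusted p = 3.93e-11). These 3 genes thus kept 7.72%, 12.9% and 13.6% of their mean level.

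Sox2 and Pou5f1 kept somewhat more, at 17.2% and 22.9%. Sox2 averaged 58.3 ± 2.02 FPKM in RA_control against 339 ± 9.18 in mESC_control (log2 change -2.52, adjusted p = 1.50e-11). Pou5f1 averaged 173 ± 18.9 FPKM in RA_control against 757 ± 10.1 in mESC_control (log2 change -2.13, adjusted p = 1.13e-09), and with RA it still ranked 248 among all genes by level. Dppa2 kept 35.5% (log2 change -1.45, adjusted p = 8.44e-09), Sall4 39.7% (-1.28, adjusted p = 2.75e-09) and Zfp281, the other NuRD-binding factor, 76.6% (-0.36, adjusted p = 0.00925). Dppa4 kept 54.3% (-0.87, adjusted p = 1.70e-08), more than its partner Dppa2. Lin28a rose, with 97.5 ± 3.68 FPKM in RA_control and 88.4 ± 4.19 in mESC_control (log2 change 0.14 ± 0.05, SE, adjusted p = 0.0164). The Lin28a call was lost without RA_control replicate 1 (adjusted p = 0.0697), without mESC_control replicate 1 (0.0781) and in a fit of those 2 groups alone (0.059), over a range of 1.16e-05 to 0.0781 in 15 alternatives, and TPM scaling gave a log2 change of 0.38. Scaling to TPM moved the median of all genes to 0.18 here and ended the call of Zfp281 (-0.15, adjusted p = 0.357), and it moved the share of higher among all calls to 63.6% from 47.5%.

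RA with the inhibitor lowered all 10 genes (under TPM scaling Lin28a was higher), where 36.7% of all genes tested were called lower and 32% higher. The groups did not overlap for any of the 10, as for 38.2% of all genes in the lower and 33.7% in the higher direction. The median change was -1.85 for the 10 genes and -0.043 for all genes. Nanog fell the furthest, with 26.0 ± 0.771 FPKM in RA_OGTi and 293 ± 5.86 in mESC_OGTi (log2 change -3.45 ± 0.05, SE, adjusted p = 1.52e-12). L1td1 averaged 9.86 ± 0.668 FPKM in RA_OGTi and 88.6 ± 5.63 in mESC_OGTi (-3.04, adjusted p = 1.18e-10), and Utf1 averaged 61.8 ± 5.12 and 512 ± 7.79 (-3.03, adjusted p = 2.85e-11). Sox2 changed by -2.85 (adjusted p = 4.51e-12) and Pou5f1 by -2.47 (adjusted p = 4.05e-10). Sall4 changed by -1.23, Dppa2 by -0.93, Dppa4 by -0.73 and Zfp281 by -0.51, with adjusted p-values of 3.96e-09, 3.57e-07, 7.07e-08 and 0.00105.

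Lin28a averaged 82.1 ± 0.506 FPKM in RA_OGTi and 90.7 ± 2.18 in mESC_OGTi (log2 change -0.14 ± 0.05, SE, adjusted p = 0.0162), and its direction was higher under TPM scaling (0.13, adjusted p = 0.0213). The Lin28a call was lost with median-of-ratios scaling (adjusted p = 0.113), with limma-voom (0.14) and without mESC_OGTi replicate 2 (0.0619), over a range of 0.0158 to 0.14. TPM scaling moved the median of all genes to 0.20 and the share of higher among all calls to 66.2% from 46.6%, and it ended the call of Zfp281 (-0.27, adjusted p = 0.101).

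Set side by side, the shares kept with RA differed by gene in opposite directions. With the inhibitor and without it, Nanog kept 8.86% and 12.9%, Sox2 13.6% and 17.2%, Pou5f1 17.9% and 22.9%, Utf1 12.1% and 13.6%, Zfp281 67.7% and 76.6%, and Lin28a 90.6% and 110.3%. The other way round, Dppa2 kept 51.5% with the inhibitor and 35.5% without it, L1td1 11.1% and 7.72%, Dppa4 59.6% and 54.3%, and Sall4 41.6% and 39.7%. The test of these differences is the difference of the inhibitor's effects given below.

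**Figure D2:**
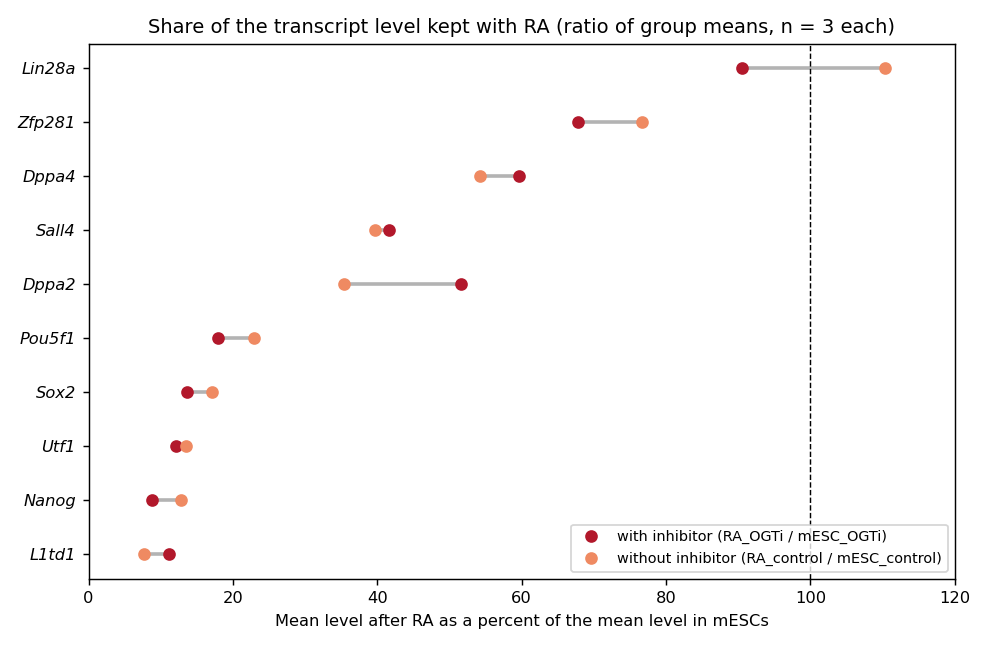
Mean level after RA as a percent of the mean level in mESCs (horizontal axis), with the inhibitor (dark red, RA_OGTi over mESC_OGTi) and without it (orange, RA_control over mESC_control), 1 line a gene. Lin28a stays near the dashed line at 100% (its direction with the inhibitor turns under TPM scaling), L1td1 and Nanog lie lowest, and Dppa2 shows the widest gap with the inhibitor value on the right.

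In RA-treated cells the inhibitor lowered 6 of the 10 genes and raised 1. Lower calls took 14.3% of all genes tested and higher calls 17.6%, and the median change was -0.19 for the 10 genes and 0.0023 for all genes. The same 7 genes had groups that did not overlap, against 20.5% of all genes in the lower and 23.7% in the higher direction. Nanog fell by 0.50 on the log2 scale, with 26.0 ± 0.771 FPKM in RA_OGTi and 37.1 ± 2.27 in RA_control (SE 0.054, adjusted p = 9.11e-05). Sox2 averaged 44.5 ± 2.21 FPKM in RA_OGTi and 58.3 ± 2.02 in RA_control (log2 change -0.38 ± 0.05, SE, adjusted p = 0.000287), and Pou5f1 133 ± 9.92 and 173 ± 18.9 (-0.37 ± 0.08, SE, adjusted p = 0.00501). Utf1, the known target of both, averaged 61.8 ± 5.12 FPKM in RA_OGTi and 81.9 ± 6.09 in RA_control (-0.40 ± 0.07, SE, adjusted p = 0.00102). In linear terms the RA_OGTi mean was 0.70 of the RA_control mean for Nanog, 0.76 for Sox2, 0.77 for Pou5f1 and 0.75 for Utf1. Lin28a averaged 82.1 ± 0.506 FPKM in RA_OGTi and 97.5 ± 3.68 in RA_control (-0.24 ± 0.05, SE, adjusted p = 0.00215).

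Sall4 was the single riser, with 23.7 ± 0.952 FPKM in RA_OGTi and 16.8 ± 0.677 in RA_control, 1.42 times as much (log2 change 0.48 ± 0.05, SE, adjusted p = 0.000113). Dppa4 averaged 38.7 ± 1.70 FPKM in RA_OGTi and 42.7 ± 1.20 in RA_control (-0.14 ± 0.05, SE, adjusted p = 0.0425), but this call held in only 4 of 15 alternatives. The adjusted p of Dppa4 ranged from 0.0297 to 0.213, and leaving out any 1 library except RA_OGTi replicate 3 ended it (0.0535 to 0.135). Dppa2 averaged 22.6 ± 1.22 FPKM in RA_OGTi and 19.9 ± 1.78 in RA_control (0.18, adjusted p = 0.0758), and L1td1 9.86 ± 0.668 and 8.71 ± 1.12 (0.17, adjusted p = 0.154). Without RA_control replicate 2 both passed as higher, Dppa2 at an adjusted p of 0.0208 (range over alternatives 0.0208 to 0.225) and L1td1 at 0.0483 (0.0483 to 0.487). Zfp281 averaged 8.53 ± 0.659 FPKM in RA_OGTi and 9.04 ± 1.49 in RA_control (-0.068, adjusted p = 0.665). The calls of Pou5f1, Sox2, Nanog, Utf1, Lin28a and Sall4 held in all 15 alternatives, which include both other scalings.

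Markers of other cell types moved beside these values. The summed level of 8 extraembryonic endoderm markers was 83.0 to 85.1 FPKM in RA_OGTi, 69.0 to 73.0 in RA_control, 67.9 to 76.0 in mESC_OGTi and 53.9 to 58.8 in mESC_control, with 8, 7, 5 and 5 of the 8 at 1 FPKM or more. Lama1 and Col4a1, which encode basement membrane proteins, made up most of that sum in every group. Lama1 was lower with RA, at 15.1 FPKM on average in RA_OGTi, 14.4 in RA_control, 31.9 in mESC_OGTi and 21.9 in mESC_control. All other markers of this list were higher with RA. Gata4 averaged 7.83, 5.925, 2.84 and 2.18 FPKM in the same groups, Gata6 3.74, 3.79, 1.06 and 1.26, and Sox17 2.15, 1.92, 0.782 and 0.604. The 8 neural progenitor markers summed to 56.4 to 58.2 FPKM in RA_OGTi, 75.5 to 88.0 in RA_control, 46.0 to 54.1 in mESC_OGTi and 40.0 to 43.5 in mESC_control. Hoxb1, a direct RA target, was the highest of them with RA (36.1 FPKM on average in RA_OGTi and 58.8 in RA_control) and Tubb3 the highest in mESCs. For trophoblast, 6 markers summed to 17.7 to 20.0 FPKM in RA_OGTi, 15.0 to 17.9 in RA_control, 33.6 to 37.6 in mESC_OGTi and 26.6 to 31.7 in mESC_control. Most of that sum was Tfap2c, at 11.6 FPKM on average in RA_OGTi, 10.4 in RA_control, 33.1 in mESC_OGTi and 25.7 in mESC_control. Cdx2 ran the other way, at 1.71, 1.25, 0.269 and 0.115 FPKM in the same groups. So did Gata3, at 2.16, 1.19, 0.199 and 0.114. Krt7 stood at 1.37, 1.83, 1.055 and 1.02 FPKM. Hand1 had 1.74, 1.38, 1.42 and 2.46, highest in mESC_control. Elf5 stayed at or below 0.0538 FPKM on average in every group. Mesoderm markers (6) stayed at or below 5.55 FPKM and fibroblast markers (7) at or below 14.0 in every library, and Dcn, which marks fibroblasts, was listed at 0 in all groups. The part of these cell types in the values of the 10 genes was not tested.

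In undifferentiated cells the inhibitor left Pou5f1, Sox2 and Nanog without a call and moved 5 other genes. It raised Sall4 and lowered Utf1 and Dppa4, as in RA-treated cells, and it also lowered Dppa2 and L1td1. Over all genes tested 4.6% were called higher and 3.18% lower. The same 5 genes had groups that did not overlap, as did 16.4% of all genes in the higher and 13.3% in the lower direction. The median change was -0.042 for the 10 genes and 0.0053 for all genes. Sall4 averaged 57.1 ± 0.699 FPKM in mESC_OGTi and 42.2 ± 3.04 in mESC_control, 1.35 times as much (log2 change 0.43 ± 0.05, SE, adjusted p = 0.00231). Dppa4 averaged 65.0 ± 1.36 FPKM in mESC_OGTi and 78.7 ± 3.31 in mESC_control (-0.27 ± 0.05, SE, adjusted p = 0.00864), and its partner Dppa2 43.9 ± 3.51 and 56.1 ± 2.08 (-0.35 ± 0.07, SE, adjusted p = 0.0176). L1td1 averaged 88.6 ± 5.63 FPKM in mESC_OGTi and 113 ± 6.28 in mESC_control (-0.34 ± 0.08, SE, adjusted p = 0.0315). Utf1 averaged 512 ± 7.79 FPKM in mESC_OGTi and 604 ± 6.81 in mESC_control (-0.24 ± 0.07, SE, adjusted p = 0.0494).

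The calls of Sall4 and Dppa4 held in all 15 alternatives. The Utf1 call was lost without any 1 of the 6 libraries (adjusted p 0.104 to 0.121), with a pseudocount of 0.1 (0.0512), without the filter (0.108) and without the intensity trend (0.0661). It held in 6 of 15 alternatives, over a range of 0.00764 to 0.121. The Dppa2 call was lost without mESC_OGTi replicate 2 (0.0723) or 3 (0.0606), without mESC_control replicate 2 (0.066) and under TPM scaling (0.059), over a range of 0.00302 to 0.0723. The L1td1 call held without mESC_OGTi replicate 1 and was lost without any 1 of the other 5 libraries (0.0504 to 0.103), without the filter (0.0763) and under TPM scaling (0.0906), over a range of 0.00209 to 0.103. Pou5f1 averaged 744 ± 37.2 FPKM in mESC_OGTi and 757 ± 10.1 in mESC_control (-0.026 ± 0.08, SE, adjusted p = 0.883). Sox2 averaged 326 ± 13.3 FPKM in mESC_OGTi and 339 ± 9.18 in mESC_control (-0.058, adjusted p = 0.550), and Nanog 293 ± 5.86 and 289 ± 15.8 (0.024, adjusted p = 0.836). Lin28a averaged 90.7 ± 2.18 FPKM in mESC_OGTi and 88.4 ± 4.19 in mESC_control (0.037, adjusted p = 0.686), and Zfp281 12.6 ± 1.51 and 11.8 ± 0.565 (0.081, adjusted p = 0.697).

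**Figure D3:**
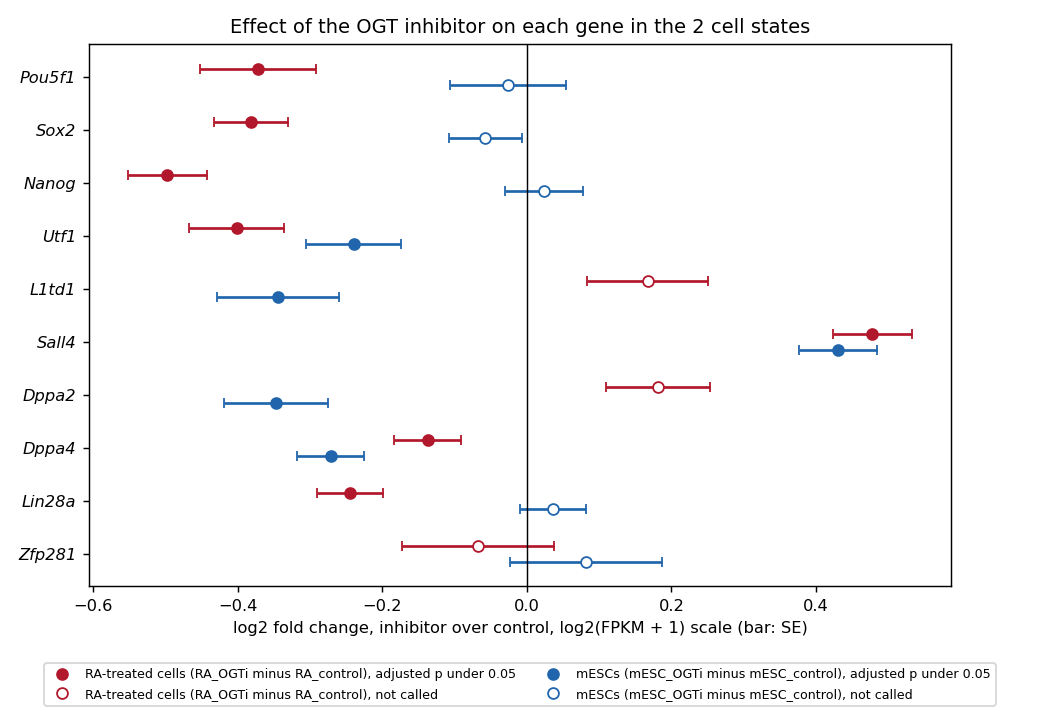
Log2 fold change with the inhibitor on the log2(FPKM + 1) scale (horizontal axis; bars are SE) of each gene in RA-treated cells (dark red, RA_OGTi minus RA_control) and in mESCs (blue, mESC_OGTi minus mESC_control); filled points passed an adjusted p of 0.05. Sall4 lies near 0.4 to 0.5 in both states, while Nanog lies at -0.50 in RA-treated cells and 0.024 in mESCs.

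Whether the inhibitor's effect differed between the 2 states was tested as the effect in RA-treated cells minus that in mESCs. The schedule of the inhibitor differed along with the state, and the test cannot tell the 2 apart. The effect differed for 5 of the 10 genes, more negative in RA-treated cells for Nanog, Sox2 and Lin28a and more positive for Dppa2 and L1td1. Over all genes tested, 3.79% were called lower and 3.9% higher, and the median difference was -0.16 for the 10 genes and 0.0041 for all genes. For Nanog the effect was -0.50 in RA-treated cells and 0.024 in mESCs, a difference of -0.52 ± 0.08 (SE, adjusted p = 0.00327). For Dppa2 it was 0.18 and -0.35, a difference of 0.53 ± 0.10 (SE, adjusted p = 0.0120). These 2 held in all 20 alternatives. Sox2 had effects of -0.38 in RA-treated cells and -0.058 in mESCs (difference -0.32 ± 0.07, SE, adjusted p = 0.0215), Lin28a -0.24 and 0.037 (-0.28 ± 0.06, SE, adjusted p = 0.0252), and L1td1 0.17 and -0.34 (0.51 ± 0.12, SE, adjusted p = 0.0259).

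These last 3 calls were each lost without some single libraries or under other settings. The Sox2 difference was lost without RA_OGTi replicate 1 (adjusted p = 0.0581), mESC_OGTi replicate 2 (0.0544) or mESC_control replicate 2 (0.0532) and under TPM scaling (0.119), over a range of 0.0130 to 0.119. The Lin28a difference was lost without RA_OGTi replicate 1 (0.0574), RA_control replicate 1 (0.061), mESC_OGTi replicate 2 (0.0632) or 3 (0.0506), or mESC_control replicate 1 (0.0543) or 2 (0.0514), over a range of 0.0154 to 0.0632. The L1td1 difference was lost without RA_OGTi replicate 1 (0.0661), mESC_OGTi replicate 2 (0.0574) or 3 (0.0568), or mESC_control replicate 2 (0.059) or 3 (0.0597), without the filter on low values (0.0575) and under TPM scaling (0.0507), over a range of 0.00733 to 0.0661. Pou5f1 had effects of -0.37 in RA-treated cells and -0.026 in mESCs, a difference of -0.35 ± 0.11 (SE) that missed the threshold (adjusted p = 0.0895) and passed it without RA_control replicate 2 (0.0198), with limma-voom (0.0258) and under TPM scaling (0.0184), with a highest value of 0.185. The differences were 0.048 for Sall4 (adjusted p = 0.760), -0.16 for Utf1 (0.325), 0.13 for Dppa4 (0.244) and -0.15 for Zfp281 (0.593). These do not show that the effect was equal in the 2 states.

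Of 22 other transcripts of the undifferentiated state, 21 were tested, and RA moved nearly all of them downward. With the inhibitor all 21 fell, and without it 20 fell and Dppa3, a maternal factor that protects methylation marks, rose by 0.87 on the log2 scale. Lower calls took 36.7% of all genes tested with the inhibitor and 37.2% without it. Their median change was -2.22 in each RA comparison, and the 2 comparisons use separate libraries. The inhibitor lowered 11 and raised 2 of the 21 in RA-treated cells, with a median of -0.18. Over all genes 14.3% were called lower and 17.6% higher there. Tdgf1, a co-receptor for NODAL, had 3.37 ± 0.322 FPKM in RA_OGTi and 10.5 ± 0.859 in RA_control (log2 change -1.40, adjusted p = 5.90e-07). Dppa3 had 1.57 ± 0.336 FPKM in RA_OGTi and 5.86 ± 0.835 in RA_control (-1.42, adjusted p = 3.85e-05). The 2 risers were Gdf3, a TGF-beta family ligand (0.71), and Esrrb, an orphan nuclear receptor that binds with OCT4 and NANOG (0.49). In mESCs the inhibitor lowered 3 of the 21 and raised none, with a median of 0.0075, where 3.18% of all genes were called lower and 4.6% higher. Among the 3 were Tdgf1 (-0.39) and Jarid2, a Polycomb cofactor (-0.28). The difference of effects was called for 7 of the 21, more negative in RA-treated cells for 5, with Dppa3 at -1.72, Tdgf1 at -1.01 and Klf2 at -0.69. Over all genes 3.79% were called lower and 3.9% higher in this test.

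**Figure D4:**
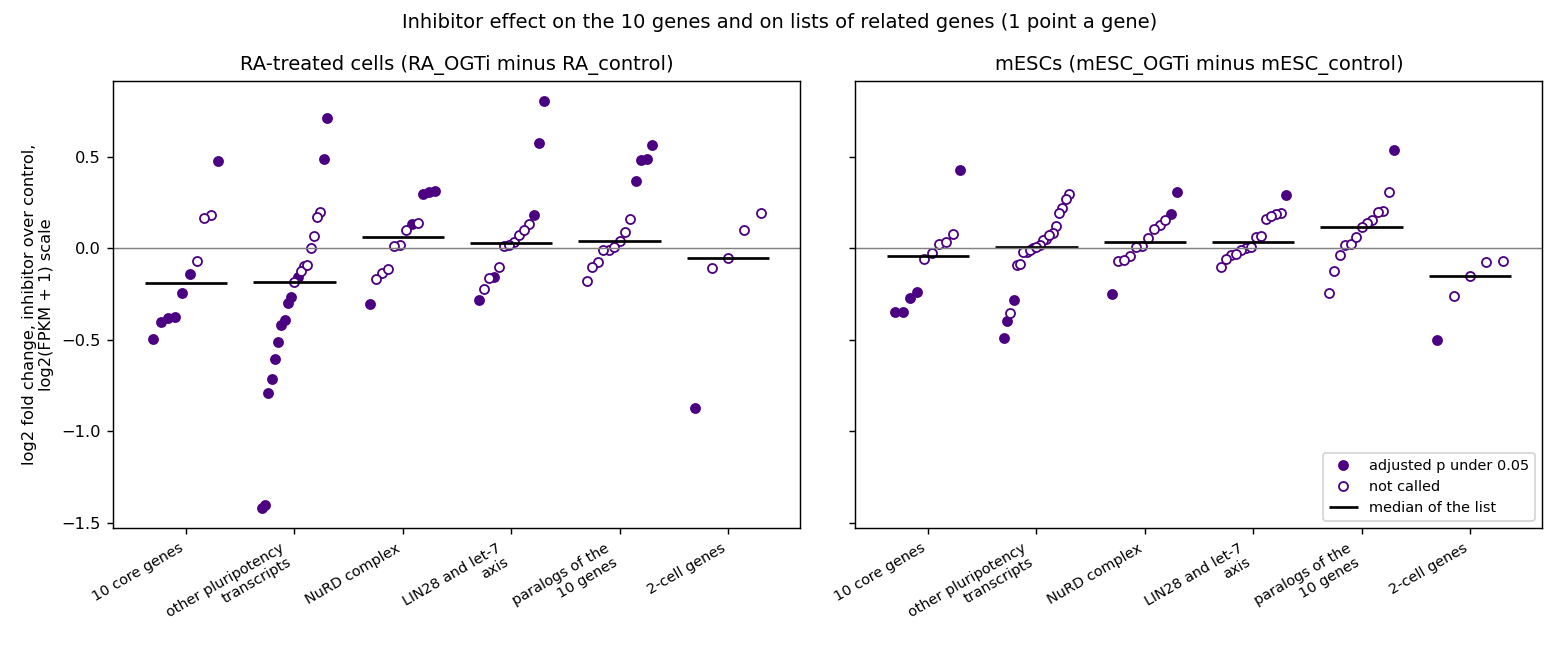
Log2 fold change with the inhibitor (vertical axis, log2(FPKM + 1) scale) of the 10 genes and of the tested genes in 5 lists, in RA-treated cells (left panel) and mESCs (right panel); filled points passed an adjusted p of 0.05 and bars are list medians. In RA-treated cells Tdgf1 and Dppa3 lie lowest, near -1.4, and Hmga2 highest, at 0.80.

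NuRD is the deacetylase and remodelling complex that SALL4 and ZFP281 recruit, and all 12 of its listed subunits were tested. In RA-treated cells the inhibitor raised 4 and lowered 1, with a median of 0.060, where 17.6% of all genes were called higher and 14.3% lower. Hdac1, a catalytic subunit, had 45.3 ± 3.18 FPKM in RA_OGTi and 36.4 ± 1.11 in RA_control (log2 change 0.31, adjusted p = 0.00210). Mbd3, a core scaffold subunit, had 62.1 ± 5.83 FPKM in RA_OGTi and 49.9 ± 5.40 in RA_control (0.31, adjusted p = 0.0113, lost in a fit of those 2 groups alone at 0.0531). The histone chaperone Rbbp7 had 91.6 ± 2.97 FPKM in RA_OGTi and 113 ± 2.38 in RA_control (-0.30, adjusted p = 0.000704). In mESCs the inhibitor raised 2 and lowered 1, where 4.6% of all genes were called higher and 3.18% lower. Mta1 was at 0.31, Chd4 at 0.19 and Mbd2 at -0.25. The Chd4 call was lost in a fit of the 2 mESC groups alone (0.0573). It was also lost without any 1 of the 6 libraries except mESC_control replicate 3 (0.0531 to 0.0916). RA lowered 9 of the 12 with the inhibitor and 8 without it, and raised 1 in each case. Over all genes 36.7% were called lower and 32% higher with the inhibitor, and 37.2% and 33.7% without it. Under TPM scaling the NuRD counts were 5 lower and 3 higher with the inhibitor, and 5 lower and 5 higher without it.

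Of 15 genes of the LIN28 and let-7 axis 14 were tested, and Lin28b, the paralog of Lin28a, had group means of 1.05 to 1.36 FPKM and was called in none of the 5 comparisons. Hmga2, a chromatin protein, rose with the inhibitor in RA-treated cells, with 3.02 ± 0.265 FPKM in RA_OGTi and 1.30 ± 0.0357 in RA_control (log2 change 0.80, adjusted p = 7.00e-05). Igf2bp2, an RNA-binding protein, had 13.6 ± 0.229 FPKM in RA_OGTi and 8.78 ± 0.507 in RA_control (0.57, adjusted p = 3.04e-05). Both effects were larger in RA-treated cells than in mESCs, by 0.82 for Hmga2 (adjusted p = 0.00320) and 0.39 for Igf2bp2 (adjusted p = 0.0110). In all, the inhibitor raised 3 and lowered 2 of the 14 in RA-treated cells, shares near the 17.6% higher and 14.3% lower over all genes. The 2 lowered were Trim71 (-0.28, adjusted p = 0.0149, held in 12 of 15 alternatives) and Igf2bp1 (-0.15, adjusted p = 0.0222). For Igf2bp1 the difference of effects was -0.32 (adjusted p = 0.0150), opposite in sign to that of Igf2bp2. In mESCs it raised Mycn alone (0.29, adjusted p = 0.0181), where 4.6% of all genes were called higher. The Mycn call was lost without mESC_OGTi replicate 2 (0.0704) or mESC_control replicate 1 (0.0615). RA lowered 9 and raised 2 with the inhibitor, and lowered 7 and raised 2 without it, Mycn furthest in both (-2.56 and -2.37). Over all genes 36.7% were called lower and 32% higher with the inhibitor, and 37.2% and 33.7% without it.

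Of 15 paralogs of the 10 genes 13 were tested, and with RA 8 rose and 2 fell with the inhibitor, and 7 rose and 2 fell without it. Over all genes tested 32% were called higher and 36.7% lower with the inhibitor, and 33.7% and 37.2% without it. Over other settings that kept all libraries, the risers numbered 2 to 9 with the inhibitor and 2 to 10 without it. Sox3, a neural relative of Sox2, rose by 2.68 with the inhibitor and 2.54 without it, while Sox15 (-2.60 and -2.63) and Sall1 (-1.79 and -2.02) fell. The inhibitor raised 4 of the 13 in RA-treated cells and 1 in mESCs and lowered none in either. Over all genes 17.6% were called higher in RA-treated cells and 4.6% in mESCs. Among 2-cell genes, which DPPA2 and DPPA4 are known to activate through Dux, 5 of 7 were tested and all 5 rose with RA in both comparisons. Over other settings that kept all libraries, 2 to 5 rose with the inhibitor and 2 to 6 without it. Higher calls took 32% and 33.7% of all genes in these comparisons. Duxf3, the listed Dux gene, fell below the filter, with 0.0066 FPKM on average in RA_OGTi and 0 in the other groups. A part of Dux in the rise was not tested. Zscan4d had 16.3 ± 0.263 FPKM in RA_OGTi and 0.985 ± 0.162 in mESC_OGTi, and 15.2 ± 1.87 in RA_control and 1.10 ± 0.300 in mESC_control. The Zscan4 genes are near-identical copies, so the split of reads among them is uncertain. The inhibitor lowered Zfp352 in RA-treated cells (-0.87, adjusted p = 0.00173) and Zscan4c in mESCs (-0.50, adjusted p = 0.0306). The Zscan4c call held in 10 of 15 alternatives and was lost without mESC_OGTi replicate 1 (0.0526), 2 (0.097) or 3 (0.0839), without the filter (0.0789) and in a fit of those 2 groups alone (0.123).

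For each of the 10 genes the most similar profiles were sought among 9030 genes, by Pearson r of log2(FPKM + 1) over the 12 libraries. The libraries fall into RA-treated and undifferentiated ones, and that split sets most of each r, so the values are descriptions. Sox2 and Nanog were each other's closest match (r = 0.998). Pou5f1 was closest to Gldc, the glycine decarboxylase, and Tcl1, an AKT coactivator, and Utf1 to Pcolce and the replication factor Mcm10 (all r = 0.998 to 0.999). L1td1 was closest to Ncl, which encodes nucleolin (0.999), Dppa2 to Pum3 (0.996), Dppa4 to Eif2s1, a translation initiation factor subunit (0.996), and Sall4 to Polr1a, the large subunit of RNA polymerase I (0.998). Zfp281 was closest to Mga (0.972), and Lin28a had the weakest best match, Snap47 (0.946). Among the 10 genes themselves, Pou5f1, Sox2, Nanog and Utf1 had pairwise r of 0.995 to 0.998, and Lin28a had r of -0.180 to 0.119 with the other 9. L1td1 and Dppa4 came close, with r of 0.980 to 0.988 and 0.966 to 0.981 with Pou5f1, Sox2, Nanog and Utf1.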

How the data were processed

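RNA sequencing libraries of mouse R1 cells were analysed, 12 in 4 groups of 3 set by the labels. Per the submitters' processing notes, HISAT2 2.0.5 and, for gene assignment or counting, featureCounts 1.5.0 were used, with GRCm38 as the build. Not given in the sources used here are read filters, the strand setting and how FPKM were calculated. The deposited values are FPKM per gene with gene lengths and coordinates. Multiplied by length they gave whole fragments for 100% of values within a tolerance of 0.02, and those fragments gave 15553627 to 17833464 per library. The library total that the deposited FPKM imply was not this sum. The sum was 0.883 to 0.934 of it in RA libraries and 1.06 to 1.11 of it in mESC libraries.

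Log2(FPKM + 1) values of all 12 libraries were fitted at once with limma 3.58.1 (R 4.3.3, variance trend by intensity). A gene was tested if at least 3 libraries reached 1 FPKM, which left 14866. They were two-sided, with Benjamini-Hochberg adjustment over all genes tested in each of 5 comparisons and a threshold of 0.05. Fold changes on this scale understate changes of low genes. RA without the inhibitor and the inhibitor in RA-treated cells share the RA_control libraries, and each other pair of comparisons with a group in common shares that group too. The difference of effects uses all 4 groups.

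The 10 genes, the lists of related genes, the markers and the tests were chosen with earlier results of these data known. All 10 genes are named in each comparison, as are the 3 called genes of each list with the largest change, Ogt, Mgea5, and the 3 genes with the profile most like each of the 10. Some of these are given as counts only or are not reported here, and further genes were named after their values were seen (Gdf3, Esrrb, Dppa3 with RA, and Sall1, Sall2 and Sall3). Replicates of a group differed by more than sampling noise, with a chi-square per gene of 3.55 to 9.11 over 12 pairs and genes of at least 10 fragments. Alternatives were TPM or median-of-ratios scaling, a pseudocount of 0.1, dropping the filter or raising it to a mean of 5 FPKM, a fit of the compared groups only, no intensity trend, a replicate block, limma-voom on recovered fragments, and leaving out each library. The scripts were tested on simulated data. Other steps used Python 3.11.15, numpy 2.4.6, pandas 2.3.3 and, for figures, matplotlib 3.10.9. Promoters came from RefSeq on GRCm38.p6.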

Additional observations from a re-analysis of the deposited data

Results flagged for a closer look

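The effect of the inhibitor differed between RA-treated cells and mESCs for 5 of the 10 genes by the limma test of the difference itself. Cell state and the schedule of the inhibitor cannot be told apart in this test. The difference, in RA-treated cells minus mESCs on the log2 scale, was -0.52 for Nanog, -0.32 for Sox2 and -0.28 for Lin28a, all more negative in RA-treated cells. It was 0.53 for Dppa2 and 0.51 for L1td1, both more positive there. For Nanog and Dppa2 the call held in every alternative run, and for Sox2, Lin28a and L1td1 it was lost without some single libraries. The Sox2 and L1td1 calls were also lost under TPM scaling, and the L1td1 call without the filter on low values.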

How the results depend on the processing

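Of 800 recomputed log2 changes of the 10 genes, 733 kept their direction and their side of the threshold, 56 lost the call, 5 gained one and 6 changed sign. The number of genes lowered by the inhibitor in mESCs was 4, and 2 without the filter on low values, 2 under TPM scaling and 1 to 3 without 1 library. The number raised by RA without the inhibitor was 1, and 0 in a fit of the 2 groups alone and 0 to 1 without 1 library. With the inhibitor RA raised 0, and 1 under TPM scaling. The inhibitor in RA-treated cells raised 1, and 1 to 3 without 1 library. The difference of effects was called higher for 2, and for 1 without the filter and 1 under TPM scaling, and 1 to 2 without 1 library. It was called lower for 3, and for 1 to 4 without 1 library. The causes were not tested.

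Sign changes were seen for Pou5f1 (-0.055 to 0.015 over fits without 1 library, positive without mESC_OGTi replicate 1), Nanog (-0.018 to 0.061, negative without mESC_control replicate 3) and Zfp281 (-0.00029 to 0.16, negative without mESC_OGTi replicate 1) with the inhibitor in mESCs. Zfp281 also changed sign with the inhibitor in RA-treated cells (-0.15 to 0.049, positive without RA_control replicate 2), as did the difference of effects of Sall4 (-0.010 to 0.080, negative without mESC_control replicate 3), and none of these was called. Lin28a (0.13) and Mgea5 (0.068) changed sign under TPM scaling for RA with the inhibitor. Over all genes, calls for the inhibitor in mESCs numbered 1157, and 664 without the filter, 512 in a fit of the 2 groups alone and 361 to 818 without 1 library. For the difference they numbered 1143, and 638 to 1032 without 1 library. The stricter filter, which tests fewer genes, gave 6046 calls against 10209 for RA with the inhibitor, 6161 against 10534 without it and 3145 against 4738 for the inhibitor in RA-treated cells. TPM scaling moved the share of higher among all calls to 66.8% from 55.3% for the inhibitor in RA-treated cells and to 61.4% from 50.7% for the difference. A filter at a mean of 5 FPKM moved it to 34.2% for RA with the inhibitor and 35.7% without it.

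The groups share replicate numbers. Over 18 pairs of same-numbered libraries their deviations correlated at -0.101 to 0.251, only 5 above 0.1, and 9 matched their own number best. The labels do not say what the numbers stand for, and since not every pair was above 0.1 they were not treated as pairing the libraries. With the replicate number as a block, the inhibitor in RA-treated cells lowered 5 of the 10 genes and raised 1, since Dppa4 lost its call (adjusted p = 0.0519). In mESCs it lowered 4 and raised 1 with the block. RA lowered 10 and raised 0 with the inhibitor, and lowered 9 and raised 1 without it. The difference of effects was called lower for 3 and higher for 2.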

Other observations

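All 4 genes of the SALL family were higher with the inhibitor in RA-treated cells, a pattern noticed after the values were seen. Over all genes tested 17.6% were called higher there. Sall1 had 8.71 ± 0.376 FPKM in RA_OGTi and 6.53 ± 0.539 in RA_control (log2 change 0.37, limma adjusted p = 0.00160). Sall2 had 4.30 ± 0.100 FPKM in RA_OGTi and 2.58 ± 0.294 in RA_control (0.57, adjusted p = 0.000327), and Sall3 3.22 ± 0.139 and 2.04 ± 0.363 (0.48, adjusted p = 0.00313). These 3 calls, like that of Sall4, held in every alternative run. In mESCs Sall2 rose with the inhibitor, to 2.01 ± 0.211 FPKM in mESC_OGTi against 1.07 ± 0.0367 in mESC_control (0.54, adjusted p = 0.00402). Sall1 and Sall3 were not called there (0.14, adjusted p = 0.237, and 0.31, adjusted p = 0.0745). Sall3 passed with a pseudocount of 0.1 (0.0414), a replicate block (0.0443) and limma-voom (0.0416). RA itself moved the family unevenly, with Sall1 lower by -1.79 with the inhibitor and -2.02 without it, Sall2 higher by 0.82 and 0.79, and Sall3 higher by 1.00 and 0.83.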
